A study of Mus musculus with 6 samples.

Results

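Adherens junction genes were examined in differentiated KH2 mouse embryonic stem cells with and without forced HOXA13. The group held 10 genes of the 24393 listed, namely the cadherins Cdh1, Cdh2, Cdh3 and Cdh11, the catenins Ctnna1, Ctnna2, Ctnnb1, Ctnnd1 and Ctnnd2, and Epcam, taken by symbol from the count lists. The low-count filter was passed by 9 of the 10, and Ctnna2 did not pass it. RNA from 6 libraries was compared, 3 labelled CONTROL and 3 labelled HOXA13, with the strain of all given as C57/BL/6. KH2 cells carry a doxycycline-responsive site, into which the study placed the human HOXA13 gene with a FLAG tag before selecting targeted clones, and it describes the 3 lines of each kind as biological replicates. All 6 samples share 1 protocol in the labels. Cells were differentiated towards definitive endoderm, the layer that lines the gut, on M15 feeder cells of mesodermal origin in the presence of Activin-A, bFGF, CHIR and Noggin. Doxycycline was given at 1.25 µg/ml from day 4. On day 6 the CXCR4+/E-cadherin+ fraction was collected by sorting, and it was grown for 1 more day with doxycycline before harvest. The product of Cdh1 was therefore used to select the cells of both groups.

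The adherens junction joins neighbouring epithelial cells. Classical cadherins on 1 cell bind cadherins on the next in a calcium-dependent way, while their cytoplasmic tails hold beta-catenin (Ctnnb1), which binds alpha-catenin (Ctnna1) and through it actin. p120-catenin (Ctnnd1) binds a site nearer the membrane and keeps the cadherin at the cell surface. During gastrulation, cells that leave the epithelium commonly exchange E-cadherin (Cdh1) for N-cadherin (Cdh2), a change called cadherin switching, and endoderm is known to keep or regain E-cadherin.

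Library totals ranged from 12279884 to 17331638 counts, and a floor of 3 counts corresponded to 0.176 to 0.240 CPM (counts scaled to a library of fixed normalised size). Values of the 3 libraries of a group are given throughout in the order of replicates 1, 2 and 3. The floor and the intervals on shares cover counting error only. CONTROL replicate 2 stood apart from the other CONTROL libraries. Over 13600 tested genes, which do not vary independently, Spearman's rho was 0.908 with CONTROL replicate 1 and 0.931 with replicate 3, while these 2 had 0.977 with each other and CONTROL replicate 2 had 0.951 to 0.961 with the HOXA13 libraries. The main changes that rest on this library are also given without it, while likeness of patterns was computed with all 6 libraries only. Mouse Hoxa13 had at most 10 counts in any library. A row under a human gene identifier had 0 counts in each CONTROL library and 2497, 7666 and 6572 in HOXA13 replicates 1, 2 and 3. The files give that row no symbol. The 8 definitive endoderm markers summed to 58.1 to 76.3 CPM in CONTROL and 41.3 to 71.2 CPM in HOXA13. Of them, Cer1 was at 0 counts in all 6 libraries, Sox17 had 13 to 63 counts and Foxa2 22 to 86 counts. Gata4 and Gata6, which are not confined to definitive endoderm, were clearly present, at 191 to 544 and 74 to 492 counts.

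Of the 9 tested members, 1 passed the test. Ctnnd2, which encodes delta-catenin, a p120-related protein known mainly from neurons, was lower in HOXA13, with a log2 fold change of -3.19. Cdh1 had a log2 fold change of 1.28 and Cdh2 of -1.34, and neither passed over all genes. Among the 9 tested members, the quasi-likelihood test of edgeR, adjusted by Benjamini-Hochberg, called 1 lower and 0 higher. Over all 13600 tested genes it called 0.0441% lower and 0.265% higher. An unadjusted p under 0.05 was found for 3 of the 9, against 14.1% of all tested genes. DESeq2 called 2 members, both lower, where it called 3.11% of its genes with an adjusted p higher and 1.94% lower. With sample quality weights, limma voom called 5 members, 3 higher and 2 lower, where it called 9.11% of all tested genes higher and 6.34% lower. Leaving out CONTROL replicate 2, edgeR also called 3 members higher and 2 lower, against 7.92% and 6.32% of all genes tested then. The median log2 fold change was 0.31 over the 9 members and -0.013 over all tested genes. Groups did not overlap for 1 member that was higher, Cdh1, and 1 that was lower, Ctnnd2, where 11.5% and 8.52% of all tested genes had no overlap in those directions. p-values measure the spread between these samples.

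**Figure D1:**
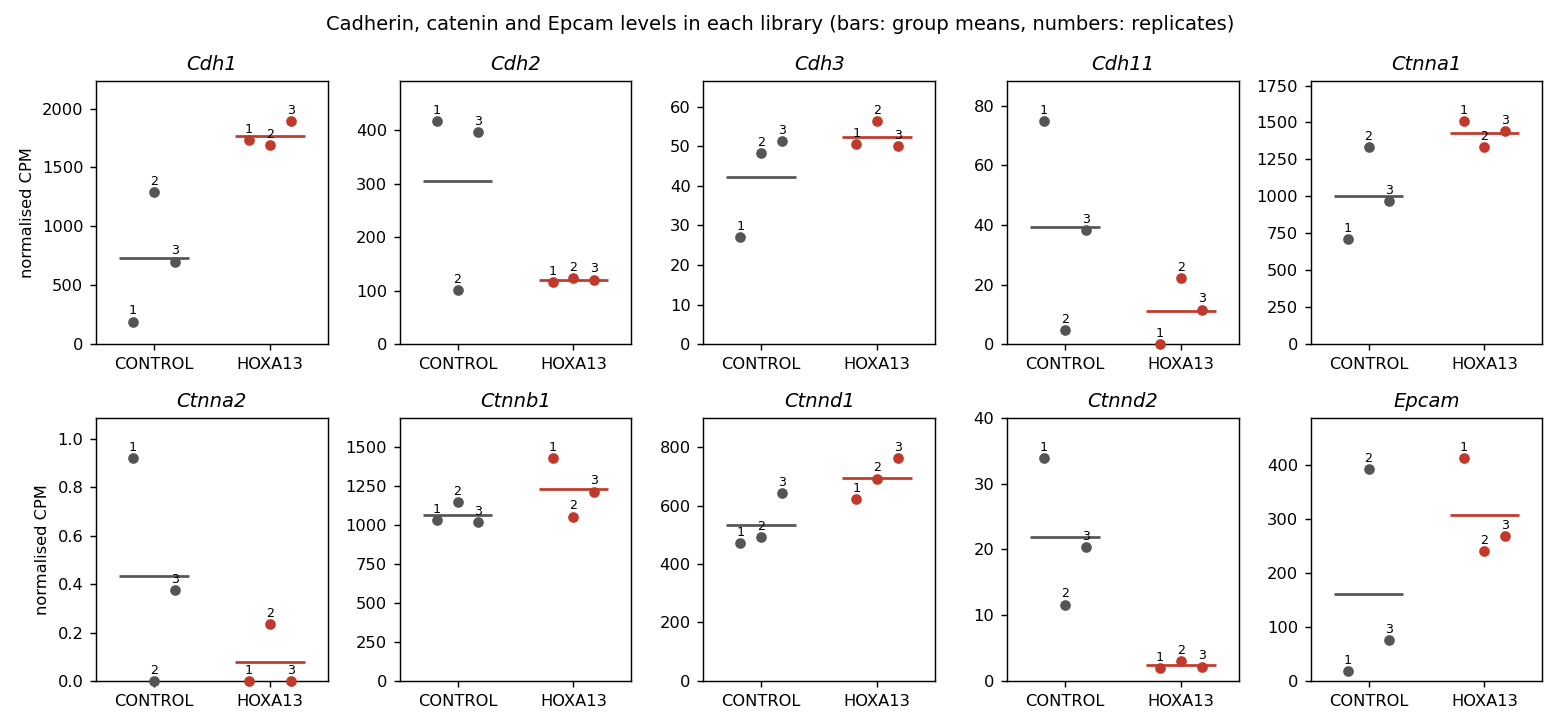
Normalised CPM of each of the 10 genes in the 3 CONTROL and the 3 HOXA13 libraries, each panel on its own linear axis from 0. Points are libraries numbered by replicate and bars are group means. Cdh1 and Ctnnd2 are the panels in which the groups do not overlap, and CONTROL replicate 2 lies near the HOXA13 libraries for Cdh2, Ctnna1 and Epcam.

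Cdh1 (mm9, chromosome 8, 109127251 to 109194146, plus strand) encodes E-cadherin, the main cadherin of epithelia. It measured 192, 1292 and 702 CPM across CONTROL against 1732, 1689.7 and 1893 across HOXA13. Every HOXA13 library was above every CONTROL library, but the lowest HOXA13 value was only 1.31 times the value of CONTROL replicate 2. Group means were 729 ± 551 CPM for CONTROL against 1771 ± 107 for HOXA13 (SD, n = 3), and the 95% interval of the log2 fold change reached from 0.0087 to 2.55. The edgeR adjusted p-value was 0.351. CONTROL values covered a 6.73-fold range and HOXA13 values a 1.12-fold range. Without CONTROL replicate 2 the log2 fold change was 1.97 and the edgeR adjusted p-value 0.0216, and without CONTROL replicate 1 they were 0.81 and 0.403.

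Cdh2 (chromosome 18, 16747386 to 16967755, minus strand) encodes N-cadherin, typical of mesenchymal and neural cells. Its level was 417, 101 and 396 CPM across CONTROL against 116, 124 and 121 across HOXA13. CONTROL replicates 1 and 3 were high and CONTROL replicate 2 was below all 3 HOXA13 libraries, so the groups overlapped. The HOXA13 libraries were close to each other, at 120.2 ± 3.86 CPM against 305 ± 177 CPM in CONTROL (SD, n = 3). The log2 fold change had a 95% interval from -2.39 to -0.29, and its adjusted p-value in edgeR was 0.241. It was called by DESeq2 (adjusted p 0.0277), and in edgeR without CONTROL replicate 2, with a log2 fold change of -1.77 and an adjusted p-value of 0.000364. Without CONTROL replicate 1 the log2 fold change was -1.07 (edgeR adjusted p 0.566).

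The remaining cadherins differed from this pair. Cdh3 (chromosome 8, 109034791 to 109080808, plus strand), which encodes P-cadherin, lies next to Cdh1. It measured 27.0, 48.3 and 51.4 CPM across CONTROL against 50.6, 56.4 and 50.1 across HOXA13, and only CONTROL replicate 1 was low. Its log2 fold change of 0.31 had a 95% interval from -0.29 to 0.92, and CONTROL values covered a 1.90-fold range, compared with 6.73-fold for Cdh1. Cdh11 (chromosome 8, 105156895 to 105309011, minus strand), a cadherin of mesenchyme and bone-forming cells, measured 74.8, 4.80 and 38.4 CPM across CONTROL against 0, 22.3 and 11.6 across HOXA13. The 0 counts in HOXA13 replicate 1 allow a level of up to 0.231 CPM. Its groups overlapped and its log2 fold change of -1.79 had a wide 95% interval, from -4.84 to 1.26. When each library was left out in turn it lay between -2.76 and -0.94, and that of Cdh3 between 0.050 and 0.46, lowest for both genes in size without CONTROL replicate 1. The same HOXA13 library had 116 CPM of Cdh2, so N-cadherin RNA was present where Cdh11 RNA was not detected.

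**Figure D2:**
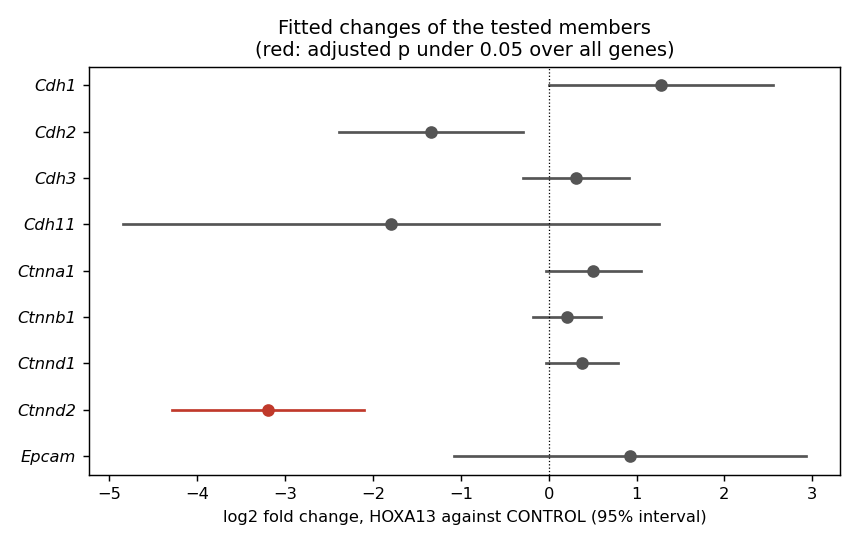
Log2 fold change of the 9 tested members, HOXA13 against CONTROL, with 95% intervals from edgeR's quasi-likelihood fit. Ctnnd2, in red, had an adjusted p-value under 0.05 over all genes, and the interval of Cdh11 was the widest, from -4.84 to 1.26.

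Cadherin switching was then read within each library, where no scaling between libraries enters. The ratio of Cdh1 to Cdh2 counts was 0.461 in CONTROL replicate 1, 12.8 in CONTROL replicate 2 and 1.77 in CONTROL replicate 3. It was 14.9, 13.6 and 15.7 in HOXA13 replicates 1, 2 and 3. Only CONTROL replicate 1 held more Cdh2 than Cdh1 counts, and CONTROL replicate 2 lay just under the HOXA13 libraries. On the log2 scale the mean ratio was 1.13 ± 2.41 in CONTROL and 3.88 ± 0.10 in HOXA13 (SD, n = 3), a difference of 2.75. A two-sided exact permutation test over the 6 libraries gave p = 0.10, the smallest value that 3 against 3 libraries allow. The difference was 4.02 without CONTROL replicate 2 and 1.63 without CONTROL replicate 1. As a share of the counts of both genes, Cdh1 made up 31.5% in CONTROL replicate 1 (95% Wilson interval 30.6 to 32.5%), 92.7% in replicate 2 (92.3 to 93.1%) and 63.9% in replicate 3 (63.1 to 64.7%). The HOXA13 libraries lay between 93.2% and 94.0%.

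Levels of different genes were compared per length, as CPM per kilobase of the union of annotated exons. Of the summed level of the 4 cadherins, Cdh1 made up 35.5% in CONTROL replicate 1, 91.7% in replicate 2 and 68.3% in replicate 3, and between 91.4% and 93.3% in HOXA13. Cdh2 was the leading cadherin in CONTROL replicate 1 alone, with 43.7%, and Cdh11 reached 15.02% there. Cdh3 stayed between 2.83% and 5.73% in all 6 libraries. The summed cadherin level was 118, 308 and 224 CPM per kilobase in CONTROL and 406, 404 and 444 in HOXA13, and the groups did not overlap. The summed level of the 5 catenins was 464, 655 and 552 CPM per kilobase in CONTROL and 774, 662 and 733 in HOXA13, also without overlap, although CONTROL replicate 2 was close to HOXA13 replicate 2. Without CONTROL replicate 2 the CONTROL mean was 51.9% rather than 65.2% for the Cdh1 share, 171 rather than 217 CPM per kilobase for the cadherins and 508 rather than 557 for the catenins. HOXA13 means were 92.6%, 418 and 723. These sums were not tested.

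**Figure D3:**
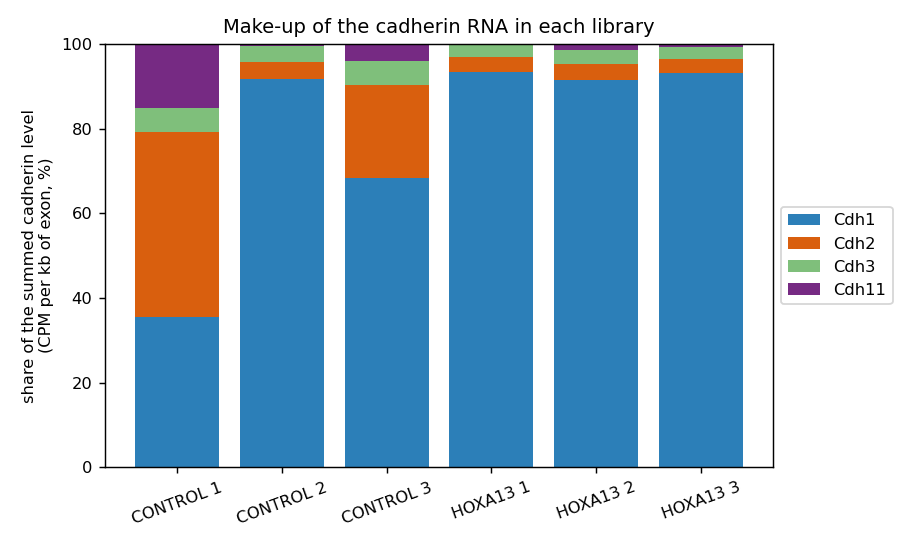
Share of Cdh1, Cdh2, Cdh3 and Cdh11 in the summed cadherin level (CPM per kilobase of exon, percent) in each of the 6 libraries. Cdh1 fills 91.4% to 93.3% in the HOXA13 libraries and 91.7% in CONTROL replicate 2, and CONTROL replicate 1 has the largest parts of Cdh2 and Cdh11.

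Within CONTROL, Ctnna1, Ctnnb1 and Ctnnd1 varied less than Cdh1 and Cdh2. Ctnna1 (chromosome 18, 35278542 to 35414427, plus strand) encodes alpha-E-catenin, the link to actin. It measured 709, 1335 and 966 CPM across CONTROL against 1509, 1331 and 1444 across HOXA13, with CONTROL replicate 2 level with HOXA13 replicate 2. Its log2 fold change was 0.51 with a 95% interval from -0.030 to 1.05 and an edgeR adjusted p-value of 0.384. Without CONTROL replicate 2 the log2 fold change was 0.75 with an edgeR adjusted p-value of 0.0208, and without CONTROL replicate 1 it was 0.29 (adjusted p 0.748). Ctnnb1 (chromosome 9, 120838334 to 120869625, plus strand) encodes beta-catenin, which also carries Wnt signals. Its level was 1031, 1146 and 1017 CPM across CONTROL against 1429, 1053 and 1213 across HOXA13, with overlap. Its log2 fold change was 0.21 with a 95% interval from -0.18 to 0.60. Ctnnd1 (chromosome 2, 84440228 to 84490922, minus strand), the p120-catenin gene, measured 471, 492 and 642 CPM across CONTROL against 623, 693 and 764 across HOXA13, and its log2 fold change was 0.37 (95% interval -0.034 to 0.78). Only CONTROL replicate 3 and HOXA13 replicate 1 crossed. Ctnna2, the alpha-catenin of neurons, measured 13, 0 and 5 counts across CONTROL against 0, 4 and 0 across HOXA13, and was close to the limit of detection in all 6 libraries.

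Per length, the order of mean levels in HOXA13 was Cdh1 at 387 ± 23.5, Ctnna1 at 386 ± 24.3, Ctnnb1 at 242 ± 37.1, Epcam at 151 ± 45.5 and Ctnnd1 at 94.7 ± 9.58 CPM per kilobase (SD, n = 3). Cdh1 and Ctnna1 did not differ beyond their spread. Below them came Cdh2 at 14.9 ± 0.48, Cdh3 at 13.1 ± 0.86, Cdh11 at 2.68 ± 2.64, Ctnnd2 at 0.403 ± 0.0995 and Ctnna2 at 0.011 ± 0.019 CPM per kilobase. In CONTROL, Ctnna1 at 271 ± 85.1 and Ctnnb1 at 209 ± 13.9 came before Cdh1 at 159 ± 120.4 CPM per kilobase, with overlapping spreads, and the means of the other members held the same order as in HOXA13. CONTROL replicate 2 set the place of Epcam in that order. Epcam measured 9.18 and 36.8 CPM per kilobase in CONTROL replicates 1 and 3, below Ctnnd1 (64.3 and 87.7) and Cdh2 (51.7 and 49.1), and 192 in replicate 2.

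Ctnnd2 (chromosome 15, 30102348 to 30959066, plus strand) measured 478, 145 and 271 counts across CONTROL against 25, 52 and 36 across HOXA13. This corresponded to 33.9, 11.6 and 20.3 CPM across CONTROL against 1.92, 3.05 and 2.18 across HOXA13. The lowest CONTROL library, replicate 2, was 3.81 times the highest HOXA13 library. The means were 21.9 ± 11.2 and 2.38 ± 0.589 CPM (SD, n = 3), the 95% interval of the log2 fold change was -4.29 to -2.10 and the edgeR adjusted p-value was 0.0470, close to the threshold. Over 13 alternatives the log2 fold change stayed between -3.51 and -2.76 and the adjusted p-value lay between 4.61e-08 and 0.353. The edgeR call was lost without CONTROL replicate 1 (adjusted p 0.129) or 3 (0.193), or HOXA13 replicate 1 (0.143), 2 (0.243) or 3 (0.353). It was also lost with RLE scaling (0.0502) and with a block for the replicate number (0.201), and it held without CONTROL replicate 2 (0.00121). In all, 6 of the 13 alternatives called Ctnnd2.

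Within the p120 family the ratio of Ctnnd1 to Ctnnd2 counts was 13.9, 42.1 and 31.5 in CONTROL and 312, 223 and 340.4 in HOXA13. Unlike the ratio of Cdh1 to Cdh2, it placed CONTROL replicate 2 among the CONTROL libraries. On the log2 scale the means were 4.72 ± 0.83 in CONTROL and 8.17 ± 0.32 in HOXA13 (SD, n = 3), a difference of 3.44, with a two-sided exact permutation p = 0.10, again the smallest possible. The difference lay between 2.98 and 3.78 when each library was left out in turn. For Ctnna1 to Ctnna2, the third ratio computed, Ctnna2 was at 0 counts in 3 libraries, so the added count set the value. The difference was 2.13 with 1 count added, 2.45 with 0.5 and 1.44 with 5, the groups overlapped, and nothing is read from it.

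**Figure D4:**
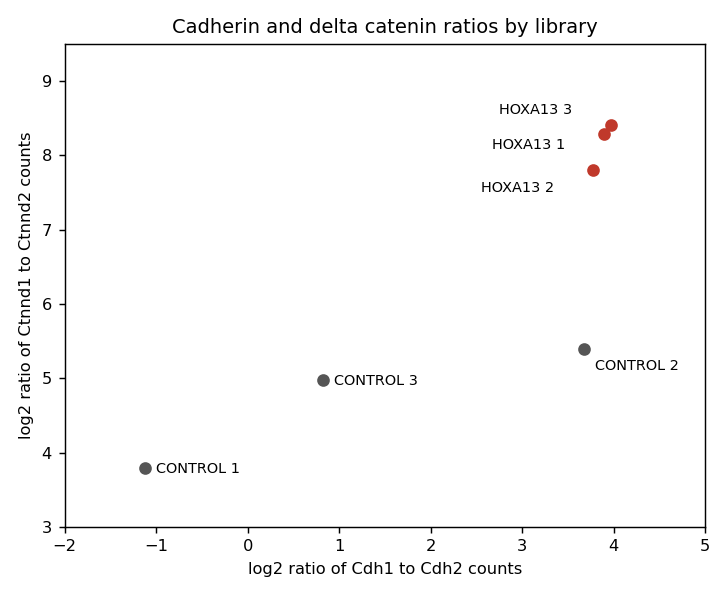
Log2 ratio of Cdh1 to Cdh2 counts (horizontal) and of Ctnnd1 to Ctnnd2 counts (vertical) in the 6 libraries. CONTROL replicate 2 reaches 3.68 on the horizontal axis, beside HOXA13 values of 3.77 to 3.97, but 5.40 on the vertical axis, below HOXA13 values of 7.80 to 8.41.

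Epcam (chromosome 17, 88035319 to 88050446, plus strand) encodes an epithelial adhesion protein that is no cadherin and is abundant in embryonic stem cells and gut epithelium. It measured 18.7, 391.9 and 74.999 CPM across CONTROL against 413, 239.9 and 269 across HOXA13. CONTROL replicate 2 lay above HOXA13 replicates 2 and 3, and the CONTROL libraries covered a 20.9-fold range, the widest among the 9 tested members. Its log2 fold change was 0.92 (95% interval -1.08 to 2.93) with an edgeR adjusted p-value of 0.710, and without CONTROL replicate 2 it was 2.69 with an adjusted p-value of 0.0116. It was 0.37 without CONTROL replicate 1 (adjusted p 0.945) and 0.56 without CONTROL replicate 3 (0.931), and between 0.64 and 1.05 when a HOXA13 library was left out.

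Of the 10 genes, 5 matched the RefSeq promoter table of build GRCm38.p6, namely Ctnna2, Ctnnb1, Ctnnd1, Ctnnd2 and Epcam. The 250 bases before the start of Epcam, the tested member with the widest range in CONTROL, and of Ctnnd2, the called member, are printed 5′ to 3′ on the strand of the gene. Capitals mark E-boxes, the letters CANNTG. The Epcam stretch is chr17:87635729-87635978 and the Ctnnd2 stretch is chr15:30172284-30172533, both on the plus strand of that build, which is not the build of the gene positions above.
Epcam: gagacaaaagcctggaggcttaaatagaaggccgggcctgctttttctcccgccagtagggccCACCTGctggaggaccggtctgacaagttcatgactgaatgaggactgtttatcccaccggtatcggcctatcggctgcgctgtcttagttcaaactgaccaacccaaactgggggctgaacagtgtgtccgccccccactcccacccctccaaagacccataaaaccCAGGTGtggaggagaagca
Ctnnd2: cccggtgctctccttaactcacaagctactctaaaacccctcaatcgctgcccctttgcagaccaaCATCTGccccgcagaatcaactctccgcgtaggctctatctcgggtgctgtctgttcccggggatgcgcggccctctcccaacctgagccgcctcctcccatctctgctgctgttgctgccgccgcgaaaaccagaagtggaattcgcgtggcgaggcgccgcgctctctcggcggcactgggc
E-boxes of the letters CACCTG, read on both strands and thus also as CAGGTG, are the form bound by Snail and Zeb repressors. The Epcam stretch held such letters beginning 187 and 19 bases before the start, and 2.06% of all 32841 promoter stretches of this length held at least 2 (17.2% held at least 1). The Ctnnd2 stretch held 1 E-box of other letters, 184 bases before the start, and 66.2% of all stretches held CANNTG, of which CACCTG is a case. The letters CAATAAA on either strand, a form bound by HOX13 proteins, were in neither stretch and in 4.21% of all. A match of letters shows no binding.

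Other genes of the junction were counted from lists. Of 27 tested partners of cadherins and catenins, 0 passed in edgeR, 5 had an unadjusted p under 0.05 (14.1% of all tested genes had one), and DESeq2 called 2, both higher, where it called 3.11% of its genes higher. Log2 fold changes were above 0 for 17 and below 0 for 10, with a median of 0.16. The largest fold change among those with a mean of at least 5 CPM was that of Pvrl4, which encodes nectin-4, an adhesion protein of the junction. It measured 6.10, 3.04 and 9.15 CPM across CONTROL against 12.8, 20.6 and 23.9 across HOXA13, without overlap (log2 fold change 1.64, edgeR adjusted p 0.169). Camsap3, which anchors microtubules at the junction, followed with 12.1, 80.4 and 19.9 CPM across CONTROL against 74.5, 74.5 and 87.1 across HOXA13. CONTROL replicate 2 again lay among the HOXA13 libraries. Without that library edgeR called 6 of the 27 partners, 4 higher and 2 lower, where it called 7.92% of all genes higher and 6.32% lower. The log2 fold change of Camsap3 moved from 1.07 to 2.28 (adjusted p 0.00137), and that of Pvrl4 from 1.64 to 1.31 (adjusted p 0.0502).

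Of 8 other cadherin genes tested among 23 listed, 0 passed in edgeR, 1 had an unadjusted p under 0.05 (against 14.1% of all tested genes), and DESeq2 called 0. Their median log2 fold change was 0.41. The largest among those with a mean of at least 5 CPM were Cdh4, which encodes R-cadherin, with 2.98, 9.99 and 5.62 CPM across CONTROL against 16.5, 7.85 and 12.7 across HOXA13, and Cdh24, with 16.8, 37.6 and 15.9 CPM across CONTROL against 59.3, 35.7 and 42.0 across HOXA13. Both overlapped between the groups. With all 6 libraries Cdh24 had a log2 fold change of 0.96 (edgeR adjusted p 0.304). Without CONTROL replicate 2, edgeR tested 10 of these genes and called Cdh24 alone, higher (log2 fold change 1.46, adjusted p 0.00853), where 7.92% of all genes were called higher. The median log2 fold change of the 10 was -0.69.

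Of 8 tested genes listed as partners of Epcam, 0 passed in edgeR, 6 had an unadjusted p under 0.05, and DESeq2 called 2, both higher (against 3.11% of its genes). Groups did not overlap for 6, all higher, and the median log2 fold change was 1.37. Over all tested genes 14.1% had an unadjusted p under 0.05 and 11.5% were higher without overlap. With CONTROL replicate 2 left out, edgeR called 6 of 9 tested, all higher, where it called 7.92% of all genes higher. Spint1, a membrane protease inhibitor, measured 29.0, 165 and 89.5 CPM across CONTROL against 278, 256 and 283 across HOXA13 (log2 fold change 1.53, edgeR adjusted p 0.237, or 2.18 and 0.00941 without CONTROL replicate 2).

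Genes with the most similar pattern were sought among the tested genes whose mean reached 5 CPM, by the root mean square difference of centred log2 levels over the 6 libraries, where 0 means the same pattern. For Cdh1 they were Tfap2c (0.070), Cldn6 (0.104), Spint1 (0.129), Mapk13 (0.136) and Ocln (0.142), of which Cldn6 and Ocln encode proteins of tight junctions. Among the members Epcam was nearest to Cdh1, at 0.582. For Cdh2 they were Wnt3 (0.047), Radil (0.117), Rmdn2 (0.141), Aif1l (0.145) and Tmem200a (0.150). For Ctnnd2 the likeness was weaker, and near genes were Wnt2b (0.310), Zfp423 (0.319), Gpc3 (0.349) and Nnat (0.370). All of these patterns share the same 6 libraries and are given as descriptions.

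Markers of other cells that the cultures could hold moved between libraries as well. Cells of both groups had been sorted as CXCR4+/E-cadherin+ on day 6, before the last day of culture. Of the 12 mesenchyme and feeder markers, 0 were at 0 counts in every library, although Lum was detected in CONTROL replicate 1 alone, and their summed level ranged from 2631 to 9289 CPM in CONTROL and from 2171 to 5576 CPM in HOXA13. CONTROL replicate 2 and HOXA13 replicate 1 had the lowest sums, and these libraries also had the lowest Cdh11 and Cdh2 levels of their groups. HOXA13 replicates 2 and 3 had sums of 5576 and 5553 CPM, above CONTROL replicate 2, with Cdh2 at 124 and 121 CPM. Most of those sums came from Fn1, at 4631 and 4976 CPM, which measured 3374, 2033 and 3728 CPM in CONTROL. Of the 11 tested markers, 2 had a log2 fold change above 0, Fn1 (0.35) and Thy1 (1.03), and 9 below 0. Groups did not overlap for 1 that was higher, Thy1, and 2 that were lower, Postn (-1.80) and Wt1 (-2.67). Over all tested genes 11.5% were higher and 8.52% lower without overlap. The edgeR test called 0 of them, and 1 had an unadjusted p under 0.05, against 14.1% of all tested genes. Without CONTROL replicate 2, edgeR called 2 of 11 tested, both lower, where it called 6.32% of all genes lower. In that fit 4 of the 11 had an unadjusted p under 0.05, against 29.1% of all genes tested then. Vim, a defining marker of mesenchyme, measured 4351, 548 and 3576 CPM across CONTROL against 155, 722 and 481 across HOXA13. Its log2 fold change was -2.64 (edgeR adjusted p 0.186), and without CONTROL replicate 2 it was -3.14 (edgeR adjusted p 0.00525). The 8 markers of pluripotent cells summed to between 32.9 and 1044 CPM in CONTROL and between 169.7 and 438 CPM in HOXA13, and the highest sum was in CONTROL replicate 2, which also had the highest Epcam level of its group. The median log2 fold change of the 8 was -0.72, and edgeR called 0. Without CONTROL replicate 2 the median was 2.21, and edgeR called 4 of the 8, all higher, against 7.92% of all genes. An unadjusted p under 0.05 was then found for 6 of the 8, against 29.1% of all genes tested then. Cdh1, Ctnna1 and Epcam were called higher in that same fit. The part of mesenchyme, feeder and pluripotent cells in the results was not tested. In bulk RNA, fewer cells of a type and less RNA per cell cannot be told apart.

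**Figure D5:**
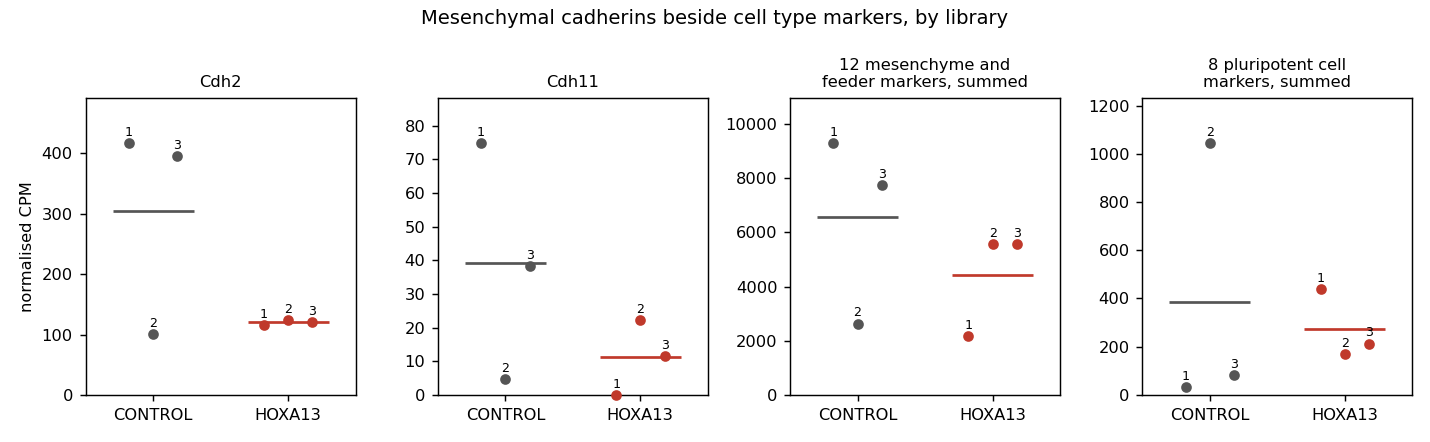
Normalised CPM of Cdh2 and Cdh11 beside the summed CPM of 12 mesenchyme and feeder markers and of 8 pluripotent cell markers, by library, on linear axes from 0. Points are libraries numbered by replicate and bars are group means. CONTROL replicate 2 has the highest pluripotent sum, 1044 CPM, and the lowest Cdh2, 101 CPM.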

How the data were processed

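The authors deposited 1 list of unnormalised read counts for each library, with genes named by symbol. Their libraries were poly-A selected and stranded, and reads were aligned to mm9. The submitters' processing notes name TopHat2 2.0.14 and HTSeq 0.6.1p1. The annotation and the strand option are not given in the sources used here. No stretch of 75 bases, the read length, in the members' annotated coding transcripts occurs in another gene, but 4 members overlap antisense genes (Cdh2, Ctnna1, Ctnna2 and Ctnnb1), which matters if strand was not used.

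The counts were tested with edgeR 4.0.16 in R 4.3.3 (filterByExpr with minimum count 10 and total 15, TMM scaling, glmQLFit and glmQLFTest on the group alone, all 6 libraries), with Benjamini-Hochberg adjustment over 13600 genes and a threshold of 0.05. Standard errors and 95% intervals came from the F statistic. Ratios used counts plus 1, and log2 profiles CPM plus 0.5. Positions and lengths are from GENCODE M1 (mm9). Alternatives were DESeq2 1.42.0, limma 3.58.1 voom, the edgeR 4 method, RLE and upper quartile scaling, no filter, a replicate block, and each library left out. The code was tested on simulated data. Libraries of a group differed beyond counting noise (chi-square per degree of freedom 16.6 to 136).

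The members, the lists and the tests were chosen with earlier results of these data known. Named genes were all 10 members, the 2 genes of each partner list with the largest absolute log2 fold change at a mean of at least 5 CPM, any gene of those lists past the threshold, and the 5 genes most like Cdh1, Cdh2 and Ctnnd2. Of the genes this rule names, 2 are not reported here. Marker genes named singly were picked after their values were seen.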

Additional observations from a re-analysis of the deposited data

How the results depend on the processing

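All 9 tested members kept the sign of their log2 fold change in all 13 alternatives run for them. Against 42 genes called over the whole table and 1 member, DESeq2 called 722 genes and 2 members, voom with quality weights 2101 and 5, the edgeR 4 method 106 and 1, and no filter 163 and 1. RLE scaling gave 34 genes and 0 members, with 2 members at an unadjusted p under 0.05. Fitted with the replicate block, 0 genes and 0 members passed (1392 genes and 2 members at an unadjusted p under 0.05), and the log2 fold change of Ctnnd2 was -3.09 with an adjusted p of 0.201. Same-numbered libraries deviated from their group means with correlations of -0.238, -0.302 and 0.120 across genes, so the numbers were not treated as pairs. Without one library the counts were 0 to 2006 genes, 0 to 5 members, 0 to 6 junction partners, 0 to 1 other cadherins and 0 to 6 Epcam partners, and the highest counts came without CONTROL replicate 2. Junction partners, other cadherins and Epcam partners were called 0 times in edgeR, 2, 0 and 2 times in DESeq2, and 8, 1 and 6 times in voom. The values of lists, summed levels and list genes without CONTROL replicate 2 were also added after seeing the data. The ratio differences kept their sign throughout. Leaving out a library moved that of Cdh1 to Cdh2 between 1.63 and 4.02, and that of Ctnna1 to Ctnna2 between 1.10 and 3.38. With the longest transcript as length, an alternative added after seeing the data, the mean Cdh1 share was 59.4% in CONTROL and 90.7% in HOXA13, against 65.2% and 92.6%. For all of these shifts the cause was not tested. Depth limits what can be said of Ctnna2, which was near the limit of detection in all 6 libraries. For Cdh11 in HOXA13 replicate 1 depth limits only the exact level. Its bound of 0.231 CPM lies below the 4.80 to 74.8 CPM of the other libraries.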

Other observations

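Known regulators of epithelial and mesenchymal genes were read from lists beside the junction genes. The 6 cadherin repressors (Snai1, Snai2, Zeb1, Zeb2, Twist1 and Twist2) all had log2 fold changes below 0, with a median of -0.89. In edgeR 0 of 6 passed and 3 had an unadjusted p under 0.05, and groups did not overlap for 0. Over all tested genes 14.1% had an unadjusted p under 0.05 and 8.52% were lower without overlap. Without CONTROL replicate 2, edgeR called 3 of the 6, all lower, where it called 6.32% of all genes lower. Zeb2, singled out after its values were seen, measured 133, 21.7 and 103 CPM across CONTROL against 3.84, 21.7 and 17.5 across HOXA13, so CONTROL replicate 2 lay level with HOXA13 replicate 2. Its log2 fold change was -2.58 (edgeR adjusted p 0.186), and without CONTROL replicate 2 it was -3.04 (edgeR adjusted p 0.00753). Snai1 lay between 17.7 and 25.1 CPM in CONTROL and between 11.8 and 18.4 CPM in HOXA13.

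The 8 activators of epithelial genes (Grhl2, Grhl3, Ovol1, Ovol2, Esrp1, Esrp2, Klf4 and Elf3) all had log2 fold changes above 0, with a median of 1.47. In edgeR 0 of 8 passed and 6 had an unadjusted p under 0.05, and groups did not overlap for 7, all higher. Over all tested genes 14.1% had an unadjusted p under 0.05 and 11.5% were higher without overlap. Without CONTROL replicate 2, edgeR called 6 of the 8, all higher, where it called 7.92% of all genes higher. Esrp1, an RNA-splicing regulator of epithelia also singled out after its values were seen, measured 3.76, 61.8 and 21.3 CPM across CONTROL against 92.1, 89.0 and 118 across HOXA13. Its log2 fold change was 1.79 (edgeR adjusted p 0.351), and without CONTROL replicate 2 it was 2.98 (edgeR adjusted p 0.0117). Summed levels of 7 neural markers were 150 to 386 CPM in CONTROL and 129 to 181 CPM in HOXA13, and those of 7 extraembryonic endoderm markers were 3.23 to 9.99 and 1.58 to 6.69 CPM. Most of the neural sums came from Nes, at 346, 99.4 and 242 CPM across CONTROL against 91.1, 130 and 128 across HOXA13. The neural markers went both ways, with Map2 higher (log2 fold change 1.56) and Tubb3 lower (-0.83) without overlap. Over all tested genes 11.5% were higher and 8.52% lower without overlap. In edgeR 0 of the 7 passed and 3 had an unadjusted p under 0.05, against 14.1% of all tested genes. Without CONTROL replicate 2, edgeR called 1 higher and 2 lower, where it called 7.92% of all genes higher and 6.32% lower. In that fit 3 of the 7 had an unadjusted p under 0.05, against 29.1% of all genes tested then.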
